A study of Mus musculus with 27 samples.

Results

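Of the interleukin-1 (IL-1) system and the inflammasome, 10 genes were followed in the colon of mice with acute colitis: Il1a, Il1b and Il18, which encode the cytokines IL-1α, IL-1β and IL-18; Il1rn, Il1r2 and Il18bp, which encode inhibitors of these cytokines; and Nlrp3, Pycard, Casp1 and Casp4, which encode parts of the machinery that releases them. The genes were found by exact match of their symbols in the deposited array table, where 18 of 45281 probes and 10 of 30869 symbols belonged to them. Il1a, Il18 and Pycard had 2 probes each, Casp4 had 3, Il1rn had 4 and the other members had 1. A gene was read by its brightest probe, and 17 of the 18 probes were detected on at least 1 colon array.

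The study compared mice that lack the methyl-CpG-binding protein Mbd2 in every cell (global Mbd2-/-) with wild-type (WT) mice, all C57BL/6, matched for age and sex, 8 to 22 weeks old and, where possible, littermates kept together. Every mouse behind the colon arrays, WT mice included, drank water with 2% dextran sulphate sodium (DSS) for 6 days, so no untreated colon is among the arrays. DSS damages the colonic epithelium and lets gut bacteria reach the lamina propria. Sorted lamina propria cells were measured on Illumina MouseWG-6 bead arrays. All gates took CD45+ cells without Ly6G or Siglec-F, which mark neutrophils and eosinophils: monocytes (CD11b+Ly6C+; 5 WT and 5 Mbd2-/- arrays), macrophages (CD11b+Ly6C-MHC-II+F4/80+; 5 and 5) and type 1 conventional dendritic cells, or cDC1s (CD11b-CD11c+CD103+; 2 and 3). Each array held RNA pooled from between 1 mouse and several (up to 10 in the paper's methods, up to 5 in the GEO record), so the spread between arrays is a spread between pools. The paper's methods take the replicates from separate experiments, which the labels do not name, so experiment was not fitted. Whether the sorted cell types shared mice is not stated.

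IL-1α and IL-1β act through the same receptor and start inflammation in many tissues. IL-1β and IL-18 are made as inactive precursors, and caspase-1 cuts them after a sensor such as NLRP3 has gathered the adaptor ASC, the product of Pycard, into an inflammasome. Some of these genes, Il1b among them, are switched on in myeloid cells by bacterial products, through NF-κB. Because much of this control lies in cutting and release, an mRNA level says nothing of how much active cytokine a cell secretes.

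Levels are given as log2 of background-corrected, quantile-normalized intensity, which has no meaning between different probes, and arrays carry the numbers in the sample labels. Mean raw intensity was 246 to 353 on WT and 235 to 314 on Mbd2-/- monocyte arrays, 222 to 337 and 203 to 324 on macrophage arrays, and 265 to 292 against 172 to 228 on cDC1 arrays, where the genotypes did not overlap. The number of detected probes ranged from 16024 to 18608. The 1 probe of Mbd2 was detected on 0 of 25 colon arrays, so the genotype labels could not be checked. The summed intensity of a list of cDC1 markers was 14300 to 16263 in cDC1s and 1609 to 2836 in the other cells, that of macrophage markers 47703 to 56125 in macrophages and at most 26237 elsewhere, and that of monocyte markers 15230 to 26387 in monocytes and at most 9983 elsewhere, as labelled. The array columns lay in sets of 6, with monocytes in sets 1 and 2, macrophages in sets 3 and 4, WT cDC1s in sets 1 and 2, and Mbd2-/- cDC1s in sets 3 to 5. Column set therefore cannot be told apart from cell type in macrophages against monocytes, nor from genotype in cDC1s, and the labels name no chip. The WT cDC1 arrays shared their sets with WT monocytes, and Mbd2-/- cDC1 arrays 27 and 28, but not array 30, with Mbd2-/- macrophages.

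The promoters are printed first for the members that differed most between cell types, together with Il1b, whose very bright probe differed little. Il1a, Il1b and Il1rn lie on chromosome 2, and Casp1 and Casp4 are neighbours on chromosome 9 with 0 genes between them. Each stretch is the 250 bases before a RefSeq transcription start (GRCm38.p6), 5′ to 3′ on the gene's strand, with CG dinucleotides in capitals, as are the TATA box (TATAAA), the AP-1 motif with the letters TGACTCA and the NF-κB consensus, each searched on both strands.
Il1a (chr2:129309973-129310222, minus strand): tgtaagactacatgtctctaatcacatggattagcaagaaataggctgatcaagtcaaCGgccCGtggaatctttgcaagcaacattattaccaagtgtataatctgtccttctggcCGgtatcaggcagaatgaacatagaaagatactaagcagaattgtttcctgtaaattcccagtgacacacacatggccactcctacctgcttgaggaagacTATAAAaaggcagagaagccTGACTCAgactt
Il1b (chr2:129371140-129371389, minus strand): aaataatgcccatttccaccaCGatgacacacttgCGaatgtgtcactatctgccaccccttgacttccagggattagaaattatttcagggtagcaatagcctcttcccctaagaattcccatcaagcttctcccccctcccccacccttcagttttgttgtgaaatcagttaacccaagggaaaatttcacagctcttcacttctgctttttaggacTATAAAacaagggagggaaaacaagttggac
Il1rn, 1 of its 3 listed starts (chr2:24336610-24336859, plus strand): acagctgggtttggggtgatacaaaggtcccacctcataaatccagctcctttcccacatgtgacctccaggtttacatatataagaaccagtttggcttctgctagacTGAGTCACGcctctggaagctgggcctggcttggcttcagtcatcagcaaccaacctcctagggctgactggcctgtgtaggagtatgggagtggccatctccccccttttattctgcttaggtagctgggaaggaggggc
Casp1 (chr9:5298267-5298516, plus strand): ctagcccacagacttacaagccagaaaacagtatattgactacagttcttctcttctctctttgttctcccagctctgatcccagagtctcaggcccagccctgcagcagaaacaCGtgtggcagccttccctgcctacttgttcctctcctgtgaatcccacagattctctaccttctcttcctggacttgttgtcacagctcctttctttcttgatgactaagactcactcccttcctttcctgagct
Casp4, 1 of its listed starts (chr9:5308599-5308848, plus strand): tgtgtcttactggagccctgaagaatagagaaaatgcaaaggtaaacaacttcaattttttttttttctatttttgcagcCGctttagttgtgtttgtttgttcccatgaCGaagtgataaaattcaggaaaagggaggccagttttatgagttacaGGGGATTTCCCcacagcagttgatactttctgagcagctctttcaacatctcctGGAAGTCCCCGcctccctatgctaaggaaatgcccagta

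Mbd2 binds methylated CG pairs, which is why these are marked. The windows held 3 CG in Il1a, 2 in Il1b, 1 in Il1rn, 1 in Casp1 and 3 in Casp4, where the median of 32841 promoter windows of the same length was 6 with quartiles of 2 and 16. TATAAA, found in 12.4% of all windows, began 32 bases before the start of Il1a and 31 before that of Il1b. TGACTCA, found in 4.46% of windows, stood 12 bases before the Il1a start and 141 before the printed Il1rn start, while the other 2 Il1rn starts held 4 CG each and no match of this motif. The NF-κB consensus, found in 7.25% of windows, matched 3 times in Casp4, overlapping matches included, nearest 39 bases before the start. A match is a match of letters, and no DNA methylation or factor binding was measured here.

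By the brightest probe of each member, differences between cell types reached -5.25 on the log2 scale, and those between genotypes 1.10. The dimmer Il1a probe reached 2.56 between the macrophage genotypes. In cDC1s, Il1rn and Il1a, followed by Casp4 and Casp1, were below their levels in monocytes and macrophages on every array, while Il1r2 passed in neither comparison with quantile normalization and Il1b remained among the brightest probes of each array. Of the 10 members, 8 passed an adjusted p of 0.05 in cDC1s against monocytes, every one of them lower (background of all genes that passed 55.2%, and 27.2% for those lower), and 5 were also at least 2-fold apart (background 17.1%). Against macrophages, 6 passed, again all lower (background 54.6%, 27.8% lower), and 4 were at least 2-fold apart (background 16.0%). These backgrounds hold for quantile normalization. With median scaling most genes that passed were lower in cDC1s, with 18.6% of them higher against monocytes and 14.8% against macrophages. Between macrophages and monocytes 6 passed (background 41.9%), 5 lower in macrophages (background 18.1%) and Il1b higher, and 0 were 2-fold apart (background 4.97%). The median difference of the members was -1.01 in cDC1s against monocytes, -0.63 in cDC1s against macrophages and -0.31 in macrophages against monocytes, beside medians of -0.03, -0.04 and 0.02 over all genes tested. Neutrophil markers, too, were lower in cDC1s, with sums of 586 to 2955 against 3357 to 10133 in monocytes and 1816 to 7456 in macrophages (9 of 10 tested passed lower against monocytes and 5 of 6 against macrophages). Mast cell markers were higher in cDC1s, at 1724 to 2249 against 135 to 320 and 225 to 437 (3 of 4 tested passed higher against each). T cell markers summed to 323 to 2817 against 155 to 430 and 260 to 531. Of these, 4 of 5 tested passed higher against monocytes, and against macrophages 4 of 6 passed higher and 2 lower. The Ly6G- gate should remove neutrophils, and the part of these transcripts was not tested. Fewer expressing cells and less RNA per cell cannot be told apart in sorted bulk samples.

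**Figure D1:**
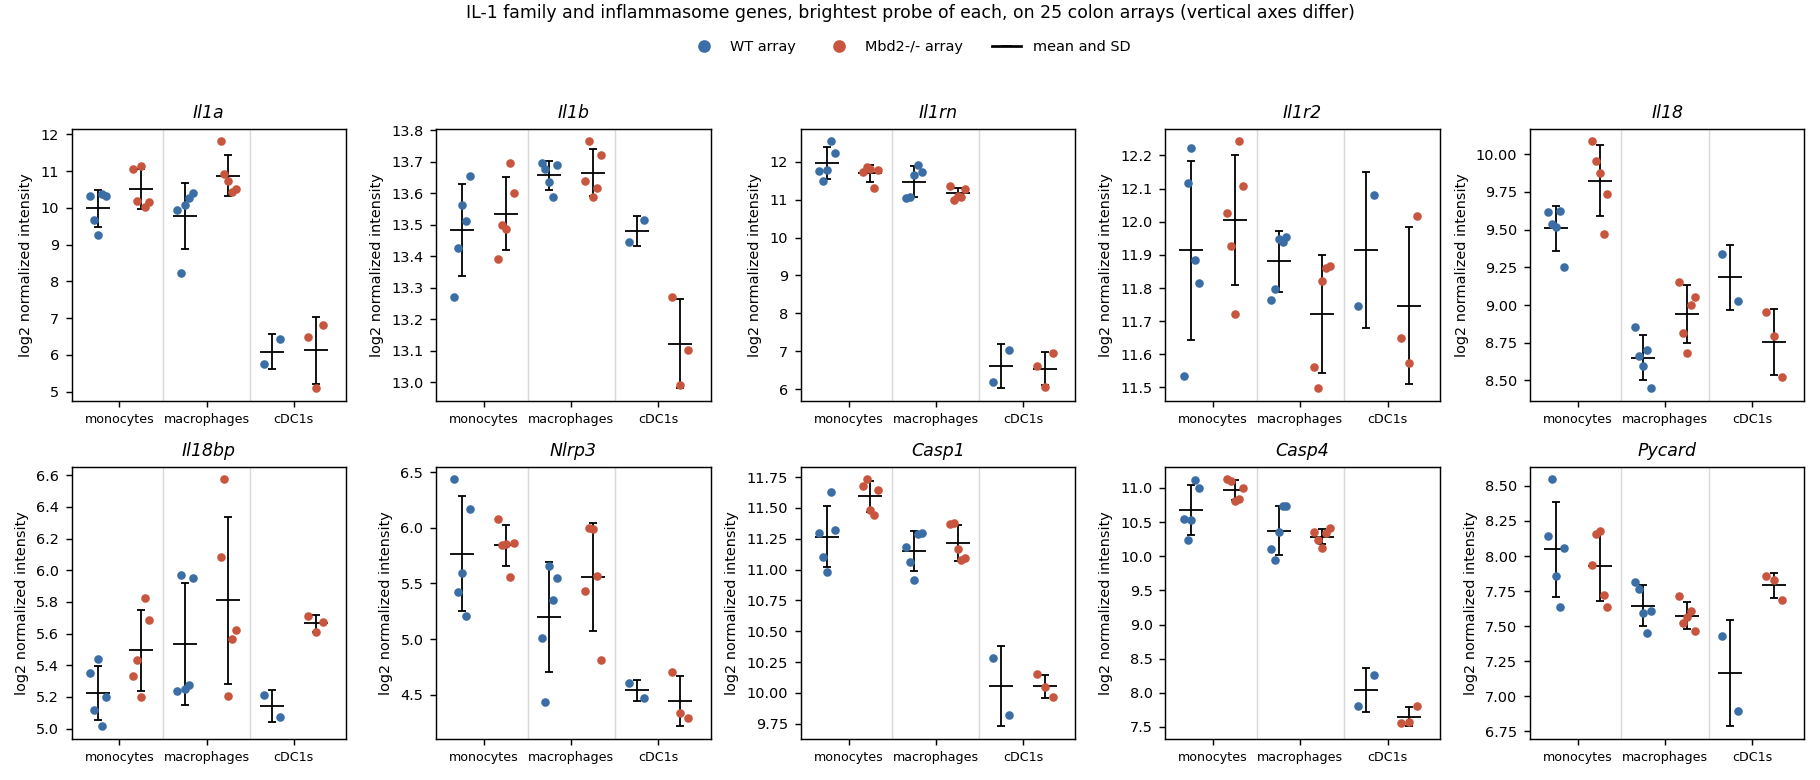
Log2 normalized intensity (vertical axes, which differ between panels) of the 10 members on 25 colon arrays, grouped by cell type, with WT arrays in blue, Mbd2-/- arrays in red and the mean and SD in black. The cDC1 arrays lie below all others for Il1a, Il1rn, Casp1 and Casp4, whereas the levels of Il1r2 stay between 11.50 and 12.24 on every array.

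Between genotypes, 1 of the 10 genes passed by its brightest probe, in 1 cell type. In monocytes 0 of 10 members passed (limma; background 2.47%), with 2 (Il18 and Casp1) at an unadjusted p under 0.05. In macrophages 0 of 10 passed (background 7.05%), with 2 (Il1a and Il18) at an unadjusted p under 0.05, and the dimmer probe of each of these 2 passed. In cDC1s 1 of 10 passed, Il1b, which was lower in Mbd2-/- cells (background 8.82%, 3.92% for genes lower in Mbd2-/-), and an unadjusted p below 0.05 was found for 3. The members' median difference was 0.18 in monocytes, 0.04 in macrophages and -0.08 in cDC1s, beside -0.03, -0.08 and 0.05 over all genes.

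**Figure D2:**
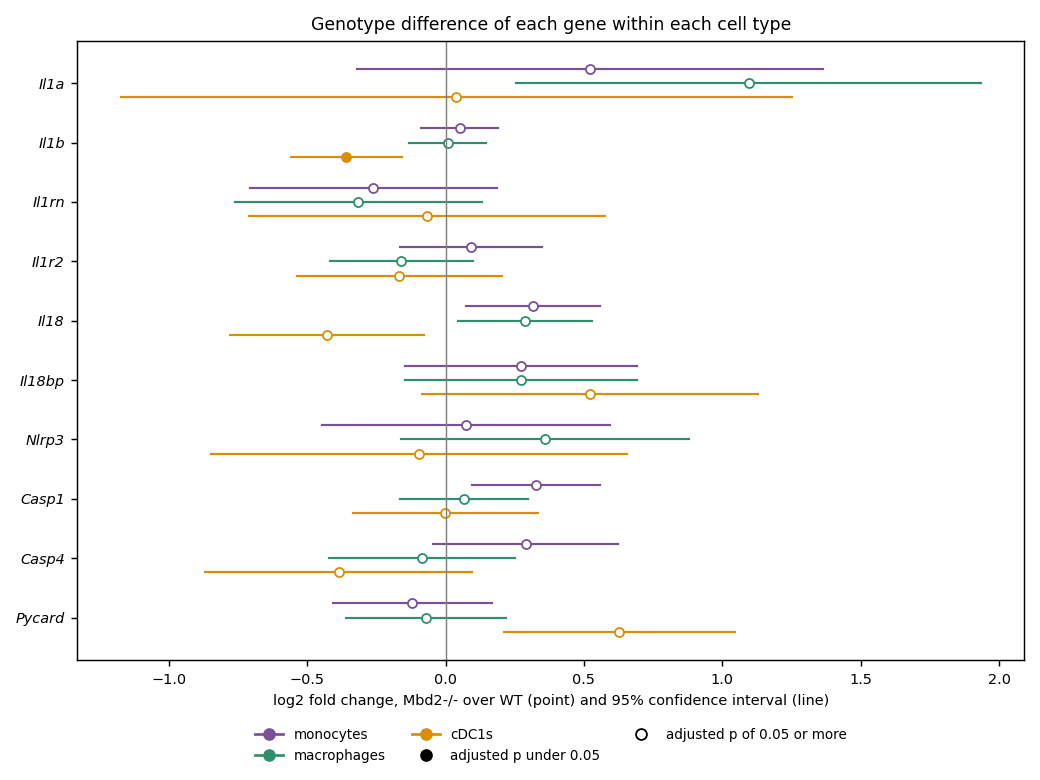
Difference Mbd2-/- minus WT (log2, horizontal axis) with its 95% interval for each member in monocytes (purple), macrophages (green) and cDC1s (orange); filled points passed an adjusted p of 0.05. The 1 filled point is Il1b in cDC1s at -0.36, and the widest shift by a brightest probe is that of Il1a in macrophages at 1.10, with an interval of 0.25 to 1.94.

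Il1b, the gene of IL-1β, gave one of the strongest signals on every array, with raw intensities of 4835 to 15182, or 32.6% to 79.1% of the brightest probe. On WT monocyte arrays 1 to 5 its level was 13.27, 13.43, 13.56, 13.51 and 13.65, and on Mbd2-/- monocyte arrays 6 to 10 it was 13.49, 13.70, 13.60, 13.39 and 13.50. These ranges overlapped almost wholly, and the difference was 0.05 (SE 0.067, adjusted p = 0.782). WT macrophage arrays 11 to 15 gave 13.70, 13.68, 13.63, 13.59 and 13.69, and Mbd2-/- macrophage arrays 16 to 20 gave 13.59, 13.62, 13.72, 13.64 and 13.76. The macrophage groups lay on top of each other, with a difference of 0.01 and a 95% interval of -0.13 to 0.15 (adjusted p = 0.949). On every array the Il1b probe was at or above the 99.64th percentile of all probes, a stretch of the scale where the spread between arrays was small, with an SD of 0.05 in WT macrophages. Raw Il1b was 12268 to 13429 on the macrophage arrays, whose mean intensity ran from 203 to 337. Whether so bright a probe could still show a rise was not tested, so the narrow interval does not show equal mRNA.

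In cDC1s Il1b was 13.45 and 13.51 on WT arrays 23 and 26, and 13.27, 12.99 and 13.10 on Mbd2-/- arrays 27, 28 and 30. Every Mbd2-/- array lay below both WT arrays, and the difference was -0.36 (SE 0.097, 95% interval -0.56 to -0.16, adjusted p = 0.0257), although median scaling in place of quantile normalization turned it to 0.23 (adjusted p = 0.700) and cyclic loess left -0.04 (adjusted p = 0.928). With the 5 cDC1 arrays fitted alone it was -0.46 (adjusted p = 0.180), and 0 of 12949 genes passed between the genotypes in limma, with 2493 at an unadjusted p under 0.05. Raw Il1b intensities ran the same way, from 10987 to 13059 on the WT and 4835 to 9243 on the Mbd2-/- arrays, which were also the dimmer arrays as a whole. Il1b no longer passed when WT array 23 (adjusted p = 0.0875), WT array 26 (0.0968), Mbd2-/- array 28 (0.0942) or Mbd2-/- array 30 (0.0653) was left out. Without array 23 or 26, 1 WT cDC1 array remains, which is assumed to vary like the other groups, here and in every result below. Macrophage and neutrophil transcripts were higher on the Mbd2-/- cDC1 arrays, with summed macrophage markers of 3024 to 6062 against 2599 to 2735 in WT (1 of 11 passed) and summed neutrophil markers of 1115 to 2955 against 586 to 709 (1 of 7 tested passed, and 3 of 12 genes were detected on no Mbd2-/- array). None of the mast cell, T cell, stromal or monocyte markers tested passed, with sums of 1724 to 2151 on Mbd2-/- against 2186 to 2249 on WT arrays for mast cells, 323 to 2298 against 578 to 2817 for T cells, 786 to 3981 against 2087 to 4174 for stroma and 7870 to 9983 against 6788 to 7095 for monocytes. Of 3 eosinophil markers tested 1 passed higher in Mbd2-/- cDC1s, with sums of 1425 to 2181 against 1329 to 1455 in WT. Of 4 cDC2 markers tested 1 passed higher, with sums of 981 to 1901 against 802 to 1117. Markers of B and plasma cells summed to 108 to 158 against 83 to 93, and 0 of 3 tested passed. The part of array brightness and of these cells in the cDC1 values of Il1b, Il18 and Pycard was not tested.

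Across cell types, Il1b had its lowest, median and highest levels at 13.27, 13.50 and 13.70 in monocytes, 13.59, 13.66 and 13.76 in macrophages, and 12.99, 13.27 and 13.51 in cDC1s. Macrophages exceeded monocytes by 0.15 (adjusted p = 0.0137), and the difference of cDC1s from macrophages was -0.36 (1.28-fold lower, adjusted p = 2.27e-05). In cDC1s against monocytes the difference was -0.21 (adjusted p = 0.00469), which cyclic loess turned to 0.12. Cyclic loess left -0.13 against macrophages (adjusted p = 0.393), and the WT arrays alone -0.18 (0.116). The excess in macrophages over monocytes did not pass after median scaling (adjusted p = 0.417), on the WT arrays alone (0.0631) or on the Mbd2-/- arrays alone (0.157). Between cDC1s and monocytes the difference on the WT arrays alone was -0.00 against -0.41 on the Mbd2-/- arrays alone, and the test of the difference between these did not pass (adjusted p = 0.0763). Whether so bright a probe could show wider gaps between cell types was not tested, so these small differences do not show near-equal Il1b mRNA.

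Il1a, the gene of IL-1α, was low in cDC1s. Its brighter probe had its lowest, median and highest levels at 9.27, 10.25 and 11.15 in monocytes, 8.22, 10.42 and 11.81 in macrophages, and 5.09, 6.43 and 6.81 in cDC1s. No cDC1 array reached the lowest array of the other cells, and the difference was -4.15 (SE 0.35, adjusted p = 1.71e-09), or 17.7-fold, against monocytes and -4.22 (adjusted p = 1.46e-09), or 18.7-fold, against macrophages. Macrophages and monocytes differed by 0.07 (adjusted p = 0.872), a value that turned to -0.21 on the WT arrays alone. Within column sets, the 1 WT cDC1 array lay -4.01 (set 1) and -3.93 (set 2) from the mean of the WT monocytes, and the 1 Mbd2-/- cDC1 array -4.87 (set 3) and -5.47 (set 4) from that of the Mbd2-/- macrophages. The dimmer Il1a probe, too, was lower in cDC1s, at -3.25 against monocytes and -3.44 against macrophages.

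Among macrophages, Il1a was 9.94, 8.22, 10.07, 10.27 and 10.41 on WT arrays 11 to 15 and 10.73, 10.43, 10.51, 11.81 and 10.91 on Mbd2-/- arrays 16 to 20. All Mbd2-/- macrophage arrays were above all WT ones, by the narrow margin between 10.43 and 10.41, and 5.23% of genes had groups that did not overlap in this comparison. The difference was 1.10 (SE 0.40, 95% interval 0.25 to 1.94) and did not pass (adjusted p = 0.0973). The dimmer probe gave 7.28, 5.75, 7.77, 7.29 and 8.50 on the WT and 9.05, 8.12, 9.66, 11.37 and 11.21 on the Mbd2-/- arrays. It overlapped only in that Mbd2-/- array 17, at 8.12, fell below WT array 15, and its difference of 2.56 passed (adjusted p = 0.0154; 7.10% of probes passed in this comparison). Without WT array 12, the lowest of both probes, that adjusted p was 0.0524, and without Mbd2-/- array 20 it was 0.0526.

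The Il1a difference between macrophage genotypes was uneven over the column sets. For the brighter probe it was 1.95 in set 3, which held WT arrays 11 to 13 and Mbd2-/- arrays 19 and 20, and 0.21 in set 4. For the dimmer probe it was 4.36 in set 3 and 1.05 in set 4. The summed intensity of neutrophil markers, whose cells the Ly6G- gate should remove, was 1816 to 3592 on WT and 2507 to 7456 on Mbd2-/- macrophage arrays, which overlapped. Of 12 such genes on the array 6 were tested and 0 passed, with S100a8, a calcium-binding protein abundant in neutrophils, at 1.24 (adjusted p = 0.0625) and the granule gene Ngp detected on 1 of the 10 macrophage arrays. Monocyte markers summed to 4083 to 6860 on WT and 5878 to 8047 on Mbd2-/- macrophage arrays, with 2 of 6 tested passing higher, and of the 2 eosinophil markers tested 1 passed higher. Their part in the macrophage values of Il1a and Il18 was not tested.

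Monocytes held Il1a at 10.33, 9.67, 9.27, 10.38 and 10.33 on the WT and 11.15, 10.03, 10.17, 11.07 and 10.18 on the Mbd2-/- arrays. The groups overlapped and the difference of 0.52 did not pass (SE 0.40, adjusted p = 0.588). It was 0.87 in column set 1 and 0.09 in set 2. In cDC1s, where the level was low, Il1a was 5.75 and 6.43 in WT and 6.49, 5.09 and 6.81 in Mbd2-/- cells, a difference of 0.04 that median scaling turned to -0.32.

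**Figure D3:**
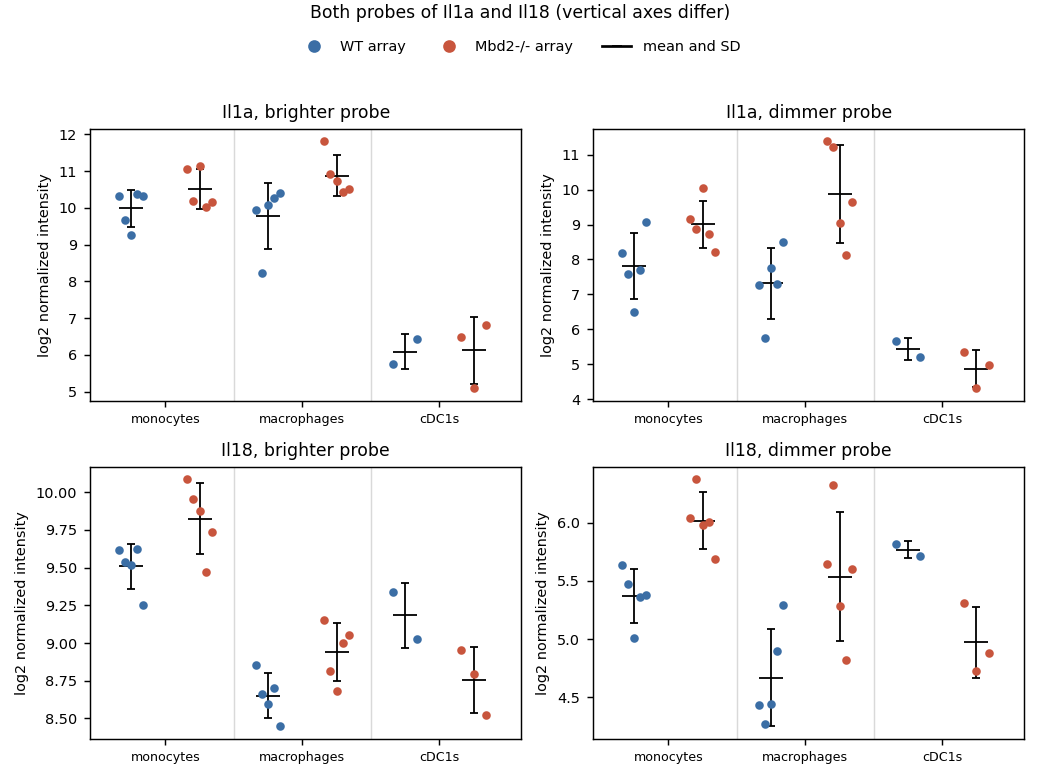
Log2 normalized intensity (vertical axes) of the brighter and the dimmer probe of Il1a and of Il18 on the 25 colon arrays, WT in blue and Mbd2-/- in red, with the mean and SD. Both Il1a probes are lowest on average in cDC1s, and both Il18 probes are higher on average in Mbd2-/- than in WT monocytes and macrophages but lower in Mbd2-/- than in WT cDC1s.

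Il18, the gene of IL-18, a cytokine that drives interferon-γ production and is also made by gut epithelium, was higher in monocytes than in the other cells. Its brighter probe had its lowest, median and highest levels at 9.25, 9.62 and 10.08 in monocytes, 8.45, 8.76 and 9.15 in macrophages, and 8.52, 8.95 and 9.34 in cDC1s. The difference of -0.87 in macrophages against monocytes was 1.83-fold (adjusted p = 2.71e-08). In cDC1s the difference from monocytes was -0.70 (adjusted p = 5.43e-06), but on the WT arrays alone the difference was -0.33 and did not pass (adjusted p = 0.101). Against macrophages cDC1s differed by 0.17 (adjusted p = 0.159), which split into 0.53 on the WT arrays alone (adjusted p = 0.00830) and -0.18 on the Mbd2-/- arrays alone (adjusted p = 0.283). Epithelial transcripts were present in every sort, with summed markers of 8147 to 19174 in monocytes, 6873 to 23547 in macrophages and 6008 to 22587 in cDC1s. Of 13 such genes 11 were tested, and 0 passed between cell types or genotypes. Their median genotype difference was 0.21 in monocytes, 0.35 in macrophages and 0.32 in cDC1s. The part of epithelial transcripts in the Il18 values was not tested.

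The genotype difference of Il18 pointed up in monocytes and macrophages and down in cDC1s. Monocyte levels were 9.62, 9.53, 9.52, 9.62 and 9.25 on the WT and 9.88, 9.47, 9.74, 10.08 and 9.96 on the Mbd2-/- arrays. Of the Mbd2-/- monocyte arrays, 4 of 5 exceeded the whole WT range, and the difference was 0.32 (SE 0.12, adjusted p = 0.172). Macrophage levels were 8.85, 8.66, 8.59, 8.70 and 8.45 in WT and 8.68, 9.00, 9.05, 9.15 and 8.81 in Mbd2-/- cells, which overlapped, with a difference of 0.29 (adjusted p = 0.129). In cDC1s, 9.34 and 9.03 in WT and 8.95, 8.80 and 8.52 in Mbd2-/- cells did not overlap, but the difference of -0.43 (SE 0.17) did not pass (adjusted p = 0.112). In cDC1s, 4 of 10 members had groups that did not overlap, beside 32.1% of all genes with these 2 against 3 arrays.

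The difference between those differences was itself tested. The genotype effect on Il18 in cDC1s minus that in macrophages was -0.72 (SE 0.20, adjusted p = 0.0381), and Il18 was the 1 member of 10 that passed there (background 7.38%, 3.19% lower). The dimmer Il18 probe gave -1.66 (adjusted p = 0.0178), made up of a difference of 0.87 in macrophages that passed (adjusted p = 0.0258) and a difference of -0.80 in cDC1s that did not (adjusted p = 0.121). Without WT cDC1 array 23, whose negative-control spots had an SD of 16.5 against 2.8 to 6.7 on the other arrays, the brighter probe gave an adjusted p of 0.265 and the dimmer probe 0.0916. The brighter probe also failed to pass without WT macrophage arrays 12 (adjusted p = 0.0507) or 13 (0.0506), Mbd2-/- macrophage arrays 18 (0.0553) or 19 (0.0623), or Mbd2-/- cDC1 arrays 28 (0.0637) or 30 (0.0988).

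The dimmer Il18 probe was close to background in macrophages. Its levels were 4.43, 4.27, 4.44, 4.90 and 5.29 on the WT macrophage arrays, of which 2 of 5 were detected, and 5.28, 4.82, 5.60, 5.65 and 6.33 on the Mbd2-/- arrays, of which 5 of 5 were. The probe thus entered the macrophage genotype test through the group where it was higher. Its -1.66 rests on the same WT macrophage values near background, so neither the 0.87 nor the -1.66 is separate support for the brighter probe. The 0.87 was made up of 1.61 in column set 3 and 0.14 in set 4, and it was lost without WT arrays 11 (adjusted p = 0.0503) or 12 (0.0834), or Mbd2-/- arrays 19 (0.0623) or 20 (0.0803). In monocytes the same probe read 5.64, 5.47, 5.01, 5.36 and 5.38 in WT and 5.98, 6.01, 5.69, 6.04 and 6.37 in Mbd2-/- cells, a difference of 0.65 that did not pass (adjusted p = 0.140). The effect of genotype on Il18 in cDC1s minus that in monocytes was -0.74 and did not pass (adjusted p = 0.0657; 0 of 10 members passed, 4 with an unadjusted p under 0.05, background 1.66%), nor did any member differ in genotype effect between macrophages and monocytes (0 of 10, background 0.0290%).

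The antagonist Il1rn showed the widest gap of any member. It encodes the IL-1 receptor antagonist, which occupies the receptor without a signal. Its brightest probe had its lowest, median and highest levels at 11.30, 11.77 and 12.53 in monocytes, 11.00, 11.20 and 11.92 in macrophages, and 6.07, 6.62 and 7.03 in cDC1s. The cDC1 arrays stood apart from all the rest, with a difference of -5.25 (SE 0.19, adjusted p = 8.95e-16), or 37.9-fold, against monocytes and -4.74 (adjusted p = 5.70e-15), or 26.7-fold, against macrophages. Within column sets, the cDC1 array lay -5.48 and -5.35 from the WT monocytes of sets 1 and 2, and -4.55 and -5.08 from the Mbd2-/- macrophages of sets 3 and 4. The next brightest Il1rn probes gave -4.36 and -3.77 in cDC1s against monocytes, but they were detected on only 1 and 3 of the 5 cDC1 arrays.

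Macrophages held less Il1rn than monocytes, at -0.51 (1.42-fold lower, adjusted p = 0.0103), with ranges that overlapped. In Mbd2-/- macrophages Il1rn was 11.10, 11.06, 11.29, 11.35 and 11.00, against 11.03, 11.08, 11.64, 11.92 and 11.72 in WT macrophages. The 3 highest WT arrays exceeded every Mbd2-/- array, yet the difference of -0.32 did not pass (adjusted p = 0.370). In monocytes the genotype difference was -0.26 (adjusted p = 0.618), with 0.12 in column set 1 and -0.75 in set 2.

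Il1r2 encodes a decoy receptor that binds IL-1 and passes on no signal. Its level was 11.53 to 12.24 in monocytes, 11.50 to 11.95 in macrophages and 11.57 to 12.08 in cDC1s. With quantile normalization the order of the 3 cell types could not be told from the spread. The differences were -0.16 in macrophages against monocytes (adjusted p = 0.159), -0.13 in cDC1s against monocytes (0.327) and 0.03 in cDC1s against macrophages (0.840). After median scaling cDC1s passed as lower than both, at -0.84 against monocytes (adjusted p = 0.00371) and -0.62 against macrophages (0.0251). Genotype differences were 0.09 in monocytes, -0.16 in macrophages and -0.17 in cDC1s, none of which passed, and median scaling turned the first to -0.09 and the last to 0.02.

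Il18bp, which encodes the soluble IL-18 binding protein, gave a weak signal of 5.01 to 6.57 over all arrays. It did not pass in any comparison of cell types, the closest being 0.31 in macrophages against monocytes (adjusted p = 0.0869; 0.0254 without Mbd2-/- macrophage array 16). In cDC1s the values were 5.21 and 5.07 in WT and 5.71, 5.61 and 5.68 in Mbd2-/- cells. All 3 Mbd2-/- arrays lay above both WT arrays, and the difference of 0.52 did not pass (adjusted p = 0.268).

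**Figure D4:**
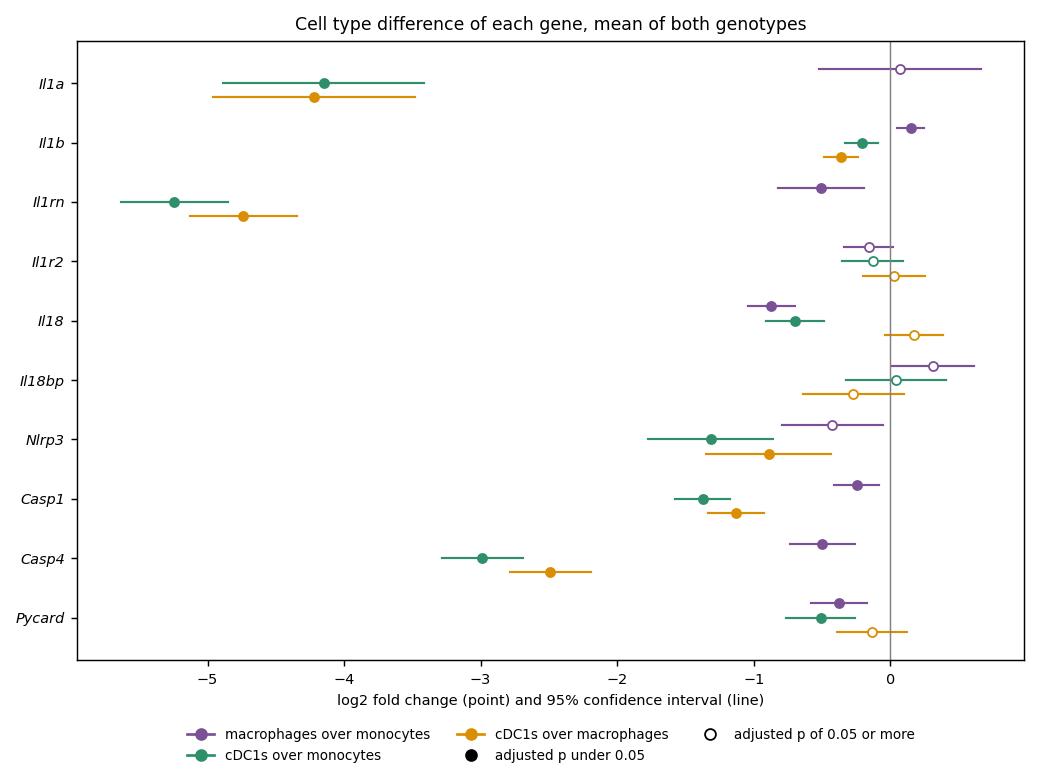
Difference between cell types (log2, horizontal axis) with its 95% interval for each member, with macrophages minus monocytes in purple, cDC1s minus monocytes in green and cDC1s minus macrophages in orange; filled points passed an adjusted p of 0.05. Il1rn, Il1a and Casp4 reach -5.25, -4.15 and -2.99 in cDC1s minus monocytes, while no member passes 1 log2 unit in macrophages minus monocytes.

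Nlrp3, the sensor of the best-known inflammasome, was weakly detected. Its level was 6.44, 5.43, 5.60, 5.21 and 6.17 on the WT monocyte arrays and 5.85, 5.56, 5.86, 6.08 and 5.85 on the Mbd2-/- ones. WT macrophages gave 5.01, 4.43, 5.66, 5.36 and 5.55, with 4 of 5 arrays detected, and Mbd2-/- macrophages 5.99, 5.57, 4.81, 5.43 and 6.00. In both cell types the genotypes overlapped, and the differences of 0.07 and 0.36 (adjusted p = 0.384 for macrophages) did not pass.

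In cDC1s the Nlrp3 probe was detected on 1 of 2 WT and 1 of 3 Mbd2-/- arrays, with levels of 4.60 and 4.47 in WT and 4.70, 4.33 and 4.29 in Mbd2-/- cells. These lay below every monocyte array, and the fitted difference, against a probe not above background on the other 3 cDC1 arrays, was -1.32 (adjusted p = 2.83e-05) against monocytes and -0.89 (adjusted p = 0.00172) against macrophages, whose range the cDC1 arrays overlapped. Macrophages differed from monocytes by -0.42, which did not pass (adjusted p = 0.0616) but did with 1 of 6 arrays left out: WT monocyte array 2 (adjusted p = 0.0484) or 4 (0.0308), WT macrophage array 13 (0.0391) or 15 (0.0471), or Mbd2-/- macrophage array 16 (0.0409) or 20 (0.0381).

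Pycard, the gene of the adaptor ASC, was highest in monocytes, with a lowest, median and highest level of 7.64, 8.00 and 8.55, against 7.45, 7.60 and 7.81 in macrophages and 6.89, 7.69 and 7.85 in cDC1s. The difference from monocytes was -0.38 in macrophages (adjusted p = 0.00379) and -0.51 in cDC1s (adjusted p = 0.00123). The gap between monocytes and cDC1s was -0.88 on the WT arrays alone and -0.14 on the Mbd2-/- arrays alone, which did not differ past the threshold (0.75, adjusted p = 0.120). In cDC1s Pycard was 7.43 and 6.89 in WT and 7.85, 7.83 and 7.69 in Mbd2-/- cells. The groups did not overlap, and the difference of 0.63 (SE 0.20) fell just short of the threshold (adjusted p = 0.0542); without WT array 23, which held the higher WT value, it passed (0.0391). The dimmer Pycard probe gave 0.52 (adjusted p = 0.069).

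Casp1, the gene of caspase-1, the protease that cuts pro-IL-1β and pro-IL-18, was lower in cDC1s, with a lowest, median and highest level of 9.82, 10.05 and 10.29, than in monocytes (10.98, 11.46 and 11.73) or macrophages (10.92, 11.18 and 11.38). No cDC1 array reached the others, and the difference was -1.38 (2.59-fold, adjusted p = 8.60e-11) against monocytes and -1.13 (2.19-fold, adjusted p = 2.35e-09) against macrophages. Macrophages differed from monocytes by -0.25 (adjusted p = 0.0160).

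Among monocytes Casp1 was 11.29, 11.10, 10.98, 11.63 and 11.32 in WT and 11.48, 11.44, 11.64, 11.67 and 11.73 in Mbd2-/- cells. Of the Mbd2-/- arrays, 3 of 5 exceeded every WT array, and the difference of 0.33 (SE 0.11) did not pass (adjusted p = 0.132); without WT array 4 it did (0.0304). It was 0.58 in column set 1 and 0.04 in set 2. In macrophages the genotype difference was 0.07, and in cDC1s it was -0.00.

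Casp4, named Casp11 in much of the mouse literature, encodes the caspase that senses lipopolysaccharide inside the cell. Its lowest, median and highest levels were 10.23, 10.92 and 11.12 in monocytes, 9.95, 10.34 and 10.74 in macrophages, and 7.56, 7.81 and 8.26 in cDC1s. The cDC1 arrays stood clear of both other cell types, with differences of -2.99 (7.93-fold, SE 0.14, adjusted p = 9.58e-14) and -2.49 (5.61-fold, adjusted p = 2.21e-12). Both dimmer Casp4 probes were lower as well, one of them 8.00-fold against monocytes and the other detected on only 3 of the 5 cDC1 arrays. Macrophages differed from monocytes by -0.50 (adjusted p = 0.00131). Genotype differences were 0.29 in monocytes (adjusted p = 0.416), -0.09 in macrophages and -0.39 in cDC1s (adjusted p = 0.307), with 0.68 and -0.18 in the 2 monocyte column sets.

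The 5 members Il1a, Il1rn, Nlrp3, Casp1 and Casp4 did not overlap between cDC1s and monocytes, as did 27.1% of all genes. Against macrophages, 5 members did not overlap, beside 22.6%. Within column sets 1 and 2, the cDC1 array differed from the WT monocytes by -2.63 and -2.80 for Casp4 and by -0.84 and -1.65 for Casp1. Within sets 3 and 4, it differed from the Mbd2-/- macrophages by -2.73 and -2.72 for Casp4 and by -1.22 and -1.07 for Casp1.

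Genes with the most similar pattern over the 25 colon arrays were sought among 14388 genes, as a description in which all points share the same arrays and cell types. Il1rn ran closest to Tlr2, a receptor for bacterial lipoproteins, Irak3, an inhibitor of Toll-like and IL-1 receptor signalling, and Ms4a6d, each with a Pearson r of 0.99; after removal of the 6 group means the r were 0.29, 0.59 and 0.49. Il1b ran closest to Atp6v1h, a subunit of the proton pump of acidic vesicles (r of 0.88, within groups 0.54), Tmem5 (0.85 and 0.59) and Lyz (0.85 and 0.40). Il18 ran closest to Ppp2cb, a catalytic subunit of protein phosphatase 2A (0.90 and 0.44), Ly6f (0.89 and 0.41) and LOC209033 (0.86 and -0.06). Each r was lower once the group means were removed.

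The other genes of the pathway were taken from lists of ligands, receptors, signalling proteins, inflammasome sensors and effectors, and regulators, of which 49 of 62 symbols were on the array. They, too, were lower in cDC1s: 25 passed lower and 3 higher of 37 tested against monocytes (median -0.78; background 27.2% lower), and 20 lower and 3 higher of 37 against macrophages (median -0.51; background 27.8% lower). Both backgrounds are those of quantile normalization. Irak3, which brakes signalling below the IL-1 receptor, was lower in cDC1s, at -4.04 against monocytes and -3.57 against macrophages. Mefv, which encodes the inflammasome sensor pyrin, differed by -4.23 and -3.20. Cd14, a co-receptor for lipopolysaccharide, differed by -3.42 and -3.25, and Nlrc4, a partner of the NAIP sensors of bacterial flagellin, by -2.24 and -2.29.

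Among the rest, Sigirr, a receptor of the IL-1 family that dampens signalling, was the opposite, higher in cDC1s than in macrophages by 2.13 (adjusted p = 1.20e-10). Gbp2, an interferon-induced GTPase, and Ninj1, which ruptures the membrane of dying cells, were lower in cDC1s than in monocytes, at -2.97 and -3.08, and Nfkbiz, an inducible regulator of NF-κB targets, was lower than in macrophages, at -2.19. In macrophages against monocytes, 20 passed lower and 4 higher of 34 tested (median -0.35; background 18.1% lower), and the 4 at least 2-fold apart were Gbp2 (-1.22), Gbp5 (-1.18), Ninj1 (-1.05) and Mefv (-1.03).

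**Figure D5:**
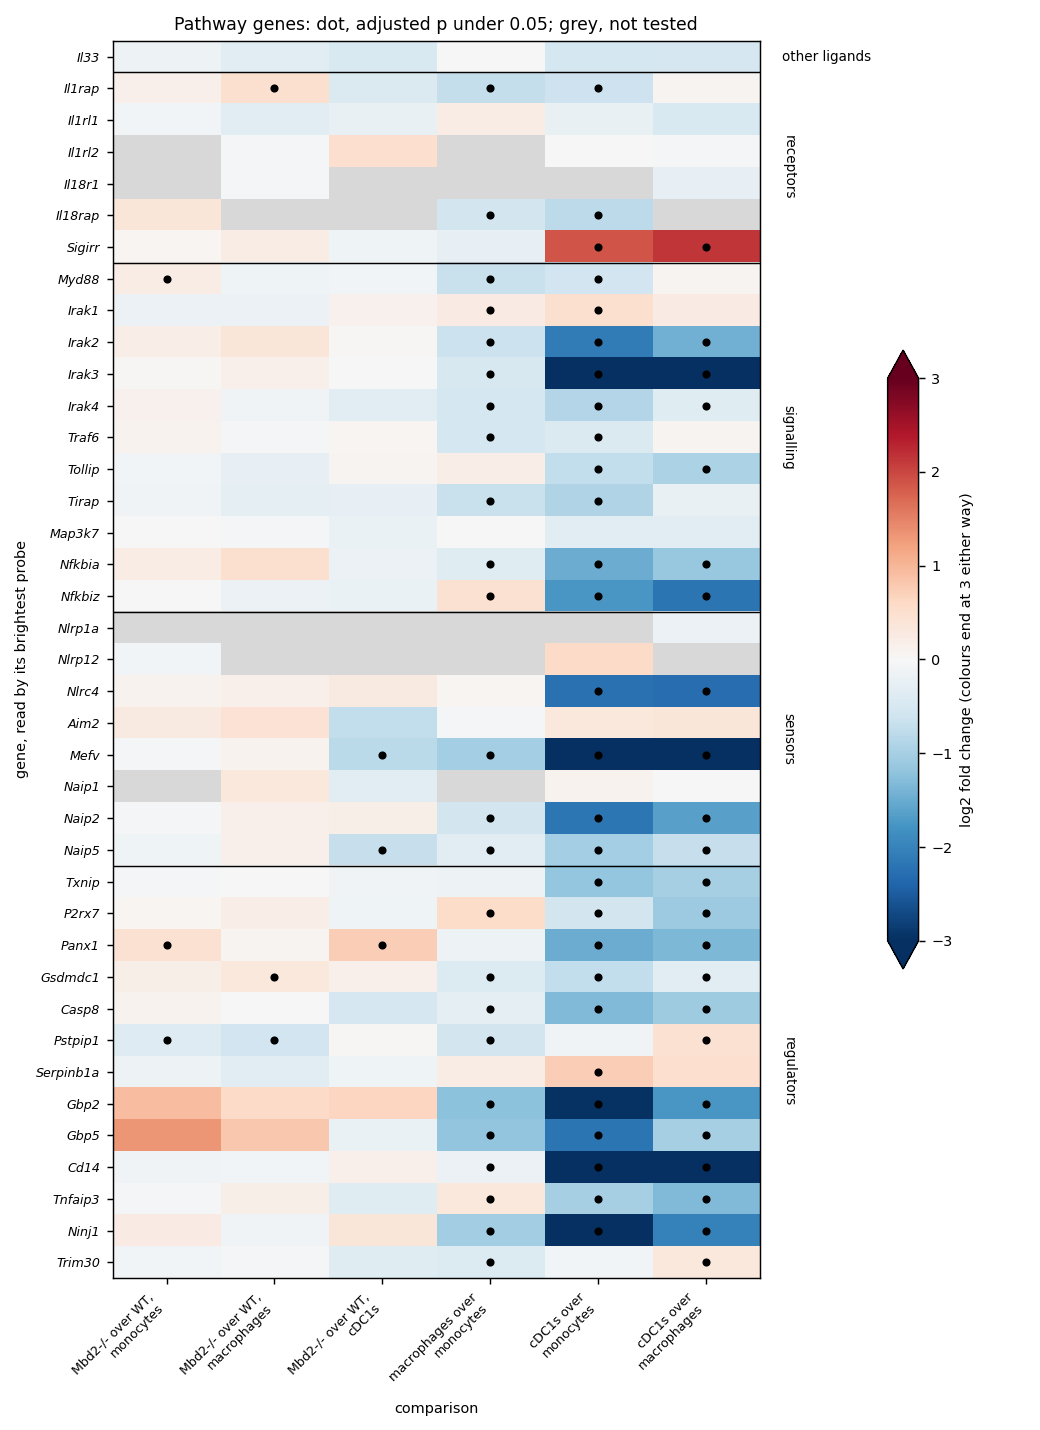
Difference (log2, colour scale) of the listed pathway genes, in rows by list, in the 3 genotype and 3 cell type comparisons; a dot marks an adjusted p under 0.05 and grey a gene that was not tested. The 2 columns that set cDC1s against the other cells hold most of the strong colours, among them Irak3, Mefv and Cd14 at -4.04, -4.23 and -3.42 against monocytes.

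Between genotypes 3 of 35 pathway genes tested passed in monocytes (background 2.47%), 3 of 36 in macrophages (7.05%) and 3 of 35 in cDC1s (8.82%), so that the shares in macrophages and cDC1s were near the background, and 0 of these were 2-fold apart. They were named after their values were seen. In monocytes Myd88, the adaptor of the IL-1 receptor, was 0.22 higher (adjusted p = 0.0348) and the channel gene Panx1 0.45 higher (0.0429) in Mbd2-/- cells, and Pstpip1, whose product binds pyrin, was lower at -0.40 (0.0286). In macrophages Il1rap, the accessory chain of the IL-1 receptor, was 0.48 higher (0.0190), from 2 of 5 WT arrays on which it was detected, Gsdmdc1, listed under the older symbol of gasdermin D, which forms the pore that releases IL-1β, was 0.31 higher (0.0396), and Pstpip1 was lower at -0.58 (0.00160). In cDC1s Panx1 was 0.74 higher (0.0108), Mefv lower at -0.81 (0.0201) and Naip5, a sensor of flagellin, lower at -0.69 (0.00857).

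Of these 9 results, Pstpip1 in macrophages passed with each single array left out. Without WT cDC1 array 23 the adjusted p was 0.101 for Panx1, 0.0701 for Mefv and 0.194 for Naip5, and Mefv was also lost without WT array 26 (0.0802) or Mbd2-/- array 28 (0.0788). Il1rap was lost without WT macrophage array 12 (0.0611) or Mbd2-/- macrophage array 20 (0.0638). Gsdmdc1 was lost without any of WT arrays 11, 12 and 13 or Mbd2-/- arrays 16 to 20 (adjusted p of 0.0515 to 0.113). In monocytes, each of Myd88 (WT arrays 1, 2 and 3, Mbd2-/- arrays 7 to 10), Panx1 (WT arrays 1, 2, 3 and 5, Mbd2-/- arrays 6, 7, 8 and 10) and Pstpip1 (WT arrays 1, 2 and 3, Mbd2-/- arrays 7, 9 and 10) was lost without any of the arrays named, at adjusted p of up to 0.147.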

How the data were processed

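The deposited table held the authors' raw bead intensities per probe and the scanner software's detection p-values, with no normalization. The submitters' processing notes name lumi and limma. Log2 levels were computed here from the deposited intensities: normexp, fed with 936 negative controls, removed the background (offset 16), and quantile normalization was run over the 25 colon arrays. A probe entered a genotype comparison once the number of arrays that detected it (p under 0.05) reached the size of the smaller genotype group. For cell types that number had to reach the size of the smaller cell type, both genotypes together. For differences of genotype effects it had to reach the size of the smallest group involved. Models with the 6 groups were fitted with limma 3.58.1 in R 4.3.3, with Benjamini-Hochberg adjustment over all probes tested per comparison. The fit was also run on simulated arrays with independent noise. These had no effects of array brightness, column set or other cells, so that run says nothing of such effects here. Genes that passed had an adjusted p under 0.05, and called genes were also at least 2-fold apart (1 on the log2 scale). p-values measure the spread between the arrays of these pools, and the number of arrays limits the precision. Intensities of 2 splenic T cell arrays, 1 per genotype, were used in no test, and 3 signal columns matched no sample and were not used.

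The members and the lists were chosen with earlier results of these data known. All members were named; pathway genes were named if called between genotypes, which none was, so those named there were chosen after their values were seen, and otherwise up to 6 called genes with the widest difference per cell type comparison, and as similar genes the 3 with the highest r. Alternatives were another scaling, filter, offset, background correction, array weights, column sets as a random block, fits on fewer groups and each array left out. An intensity trend in the variance prior and robust control estimates were chosen after seeing the data. The RNA kit differs between the paper's methods and the sample record.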

Additional observations from a re-analysis of the deposited data

Results flagged for a closer look

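Within single groups of 5 arrays, 3 of the 40 sets of values tested held 1 array far from the rest, where chance alone gives about 1 in 20. Il1a on WT macrophage array 12 was 8.22, against 9.94 to 10.41 on the other WT macrophage arrays. Il1rn on Mbd2-/- monocyte array 7 was 11.30, against 11.74 to 11.85. Il18 on WT monocyte array 5 was 9.25, against 9.52 to 9.62.

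The effect of genotype on Il18 differed between cDC1s and macrophages by the test of the difference itself, at -0.72 for the brighter probe (limma, adjusted p = 0.0381) and -1.66 for the dimmer probe (adjusted p = 0.0178). The dimmer probe was detected on 2 of 5 WT and 5 of 5 Mbd2-/- macrophage arrays, where it was higher, and is no separate support. Without WT cDC1 array 23 neither probe passed, with adjusted p of 0.265 and 0.0916, and the 1 WT cDC1 array left is assumed to vary like the other groups.

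The splenic CD4 T cells, 1 array per genotype and outside every comparison, were recorded at 6 weeks after T cell transfer, with no DSS listed. They gave detected signals for 7 of the members. The lower of the 2 raw intensities was 1323 for Casp1, 449 for Casp4, 236 for Il1r2, 158 for Pycard, 117 for Il1b, 106 for Il18 and 104 for Il18bp. No probe of Il1a, Il1rn or Nlrp3 was detected on either T cell array. The cause was not tested.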

How the results depend on the processing

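Median scaling moved the median of all genes from -0.03 to -0.25 for genotype in monocytes, from 0.05 to -0.19 for genotype in cDC1s, from -0.03 to -0.34 for cDC1s against monocytes and from -0.04 to -0.38 for cDC1s against macrophages. The share of higher genes among those that passed moved with it, from 55.6% to 26.9% for genotype in cDC1s, from 42.0% to 69.2% (53.1% with cyclic loess) for genotype in macrophages, from 50.7% to 18.6% for cDC1s against monocytes and from 49.0% to 14.8% for cDC1s against macrophages, and for the genotype effects from 62.5% to 21.4% in cDC1s minus monocytes and from 56.8% to 8.03% in cDC1s minus macrophages. Of the 1558 single values read under other settings, 1408 kept their direction and their side of the threshold, 100 no longer passed, 27 newly passed and 23 changed sign. Some of these settings changed only the threshold, the filter or the variance prior, so the sign was fixed there. A stricter threshold also could not add a pass, so the 1408 does not measure how stable the values are. With 1 array left out the counts were 1162, 54, 14 and 24 of 1254. The cause of each change was not tested.

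Members that passed between genotypes numbered 0 in monocytes, 2 at an unadjusted p under 0.05 and 1 with array weights; 0 in macrophages, 2 unadjusted and 2 when any probe counted; and 1 in cDC1s, which fell to 0 at an adjusted p under 0.01, with the 2-fold limit, median scaling, cyclic loess, no filter, array weights or cDC1s alone, and rose to 2 with a stricter filter and 3 unadjusted. Pathway genes that passed numbered 3 in each cell type. In monocytes they became 6 unadjusted, 5 with any probe, 5 with array weights, 1 with an intensity trend, 1 with monocytes alone, and 0 at an adjusted p under 0.01, with the 2-fold limit, median scaling or no filter. In macrophages they became 6 unadjusted, 1 at an adjusted p under 0.01, 1 with no filter, 1 with macrophages alone, and 0 with the 2-fold limit or median scaling. In cDC1s they became 7 unadjusted, 1 at an adjusted p under 0.01, 1 with array weights, and 0 with the 2-fold limit, median scaling or cDC1s alone.

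In macrophages against monocytes the 6 members became 3 at an adjusted p under 0.01, 0 with the 2-fold limit, 3 with median scaling, 2 on the WT and 3 on the Mbd2-/- arrays alone, and the 24 pathway genes became 4 with the 2-fold limit and 15 on the WT arrays. In cDC1s against monocytes 8 members and 28 pathway genes became 5 and 16 with the 2-fold limit. Members whose genotype effect differed between cDC1s and monocytes rose from 0 to 4 unadjusted and 1 with a stricter filter. Between cDC1s and macrophages the 1 such member became 3 unadjusted, 2 without background correction, 2 with a stricter filter, and 0 at an adjusted p under 0.01, with the 2-fold limit, median scaling, no filter, array weights, the trend or only the compared cells. With 1 array left out, members that passed numbered 0 to 1 in monocytes, 0 to 0 in macrophages and 0 to 1 in cDC1s between genotypes, 6 to 8, 8 to 8 and 6 to 6 between cell types, and 0 to 0, 0 to 2 and 0 to 2 for differences of effects; pathway genes numbered 0 to 5, 1 to 3, 0 to 5, 22 to 25, 28 to 30 and 21 to 26 in the same order.

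With median scaling, sign changes were seen for genotype in monocytes at -0.0272 for Il1b, -0.0944 for Il1r2 and -0.13 for Nlrp3, in macrophages at -0.0495 for Casp1, and in cDC1s at -0.32 for Il1a, 0.23 for Il1b and 0.0217 for Il1r2. Between cell types it turned Il18bp to -0.20 (cDC1s against monocytes) and Il1r2 to -0.62 and Il18 to -0.48 (cDC1s against macrophages), and it turned the difference of genotype effects on Il1b to 0.26 (cDC1s minus monocytes) and 0.22 (minus macrophages). Cyclic loess gave 0.28 for Nlrp3 and 0.00180 for Casp1 in cDC1s and 0.12 for Il1b in cDC1s against monocytes. Array weights gave -0.00640 for Il1a and 0.00938 for Casp1 in cDC1s and -0.00758 for Il1r2 in cDC1s against macrophages, and cDC1s alone gave 0.00618 for Casp1. On the WT arrays alone Il1a was -0.21 in macrophages against monocytes and Il18bp -0.0823 in cDC1s against monocytes. On the Mbd2-/- arrays alone Il18 was -0.18 and Pycard 0.22 in cDC1s against macrophages. With 1 array left out, genotype differences that changed sign ranged in monocytes from -0.00272 to 0.0931 for Il1b, -0.00474 to 0.17 for Il1r2, -0.0655 to 0.24 for Nlrp3 and -0.22 to 0.00521 for Pycard, in macrophages from -0.0163 to 0.0283 for Il1b and -0.19 to 0.00569 for Casp4, and in cDC1s from -0.30 to 0.56 for Il1a, -0.49 to 0.35 for Il1rn and -0.23 to 0.23 for Casp1. Cell type differences that did so ranged from -0.0438 to 0.27 for Il1a in macrophages against monocytes, and in cDC1s against macrophages from -0.0535 to 0.11 for Il1r2 and -0.27 to 0.000938 for Pycard.

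The column sets as a random block had a correlation of 0.0183 and left Il1b in cDC1s at an adjusted p of 0.0249. No column set held cDC1s of both genotypes, so this block could not separate column set from genotype for that result. No paired analysis was possible because the groups share no replicate numbers; numbers that differ by 10 had a correlation of 0.0557. With 2 WT cDC1 arrays, each comparison of cDC1 genotypes rests on the pair, and probes near background, such as those of Nlrp3 and Il18bp, limit what a small difference can show.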
